A study of Arabidopsis thaliana with 8 samples.

Results

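A run of neighbouring Arabidopsis thaliana genes on chromosome 2, from locus AT2G41610 to locus AT2G43530, is described here across 8 strains. The genes were chosen by their lowered signal in 1 of those strains, ExTQ015, so their low values in ExTQ015 are given as a description and carry no test. The rule took every locus between the 2 end names, which gave 197 of the 25643 loci on the array. Of these, 163 were measured, meaning that 6 or more of the 7 other strains gave a signal well above background, and 34 were too dim for a difference to be given.

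Each strain was profiled once, on 1 Agilent 44K 1-colour array, from 200 ng of leaf RNA as the protocols describe it. The molecule field of the labels reads genomic DNA instead, and the signals are taken as RNA here, on which every difference below depends. The 8 strains are diploid progeny of plants in which the Ex-TAQing system had been activated. ExTQ002, ExTQ003, ExTQ013 and ExTQ015 were hybridised on slide 1, and ExTQ005, ExTQ016, ExTQ018 and ExTQ019 on slide 2. All 8 share that history: a gene for the restriction enzyme MseI and a heat treatment of 3 h at 33 °C, followed by 4 weeks of growth in long days (16 h light, 8 h dark). No untreated plant was analysed here, so the 7 other strains served as the comparison for any 1 strain. The labels do not tell single plants from pooled ones.

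Ex-TAQing uses a restriction enzyme made inside the plant, which cuts the nuclear DNA when the plant is warmed. The broken ends are joined again by the cell's own repair. Rejoining can leave rearranged chromosomes, among them losses and gains of chromosome segments. Where a segment is present in fewer or more copies, the transcripts of many of its genes commonly shift by a similar factor, while feedback and other regulation can hold single genes elsewhere. Hybridised with RNA, an expression array does not count DNA copies, and in a whole leaf fewer cells of a type and less RNA per cell cannot be told apart.

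The arrays were of like quality. Between 61.3% of probes in ExTQ015 and 67.69% in ExTQ016 were well above background. Leaf marker genes (RBCS1A, CAB1, LHCA1 and RCA) were well above background in every strain, and their summed level in ExTQ015 lay inside the range of the others. Petal, stamen and carpel markers (AP3, PI, AG and SEP3) were well above background too, all 4 in each strain but ExTQ002, where 3 of the 4 were, although the tissue is labelled as leaf. Seed storage protein genes were well above background as a full set of 4 in ExTQ016, and ExTQ018 had 1 of the 4. ExTQ019 stood apart from the rest over the whole genome: it held the lowest of the 8 values for 29.35% of its measured genes.

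In ExTQ015 the stretch was lowered as a whole. Levels are the log2 processed signal minus the 75th percentile of the array, and a difference is the level in a strain minus the median of the 7 others, centred so that the median gene of the genome is 0. The median difference of the 163 measured members in ExTQ015 was -0.61 (interquartile range -0.81 to -0.43), which is 65.4% of the level in the others. The members' differences had an SD of 0.49, against 0.45 for all measured genes, so single members were not unusually alike. Of the 163 members, 154 lay below 0, 123 of them between -1 and -0.3, a band that held 13% of all measured genes. ExTQ015 held the lowest of the 8 levels for 106 members, 65.0% of them, against a background of 6.15% of all 19640 measured genes. It held the highest for 0 of the 163.

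In the 7 other strains the same genes were at the genome's level. Their median differences ran from 0.02 in ExTQ019 to 0.06 in ExTQ002, with an SD of 0.015 over the 7 strains. Taken strain by strain, the median member was lower in ExTQ015 than in ExTQ002 by -0.65, than in ExTQ013 by -0.61, than in ExTQ003 by -0.62, than in ExTQ005 by -0.64, than in ExTQ016 by -0.62, than in ExTQ018 by -0.62 and than in ExTQ019 by -0.64. The 21 pairs among the 7 others gave member medians of at most 0.047 in size. ExTQ002 and ExTQ019 each held the lowest level for 21 members, and the other 5 strains for 1 to 8 each. With ExTQ019 left out, ExTQ015 was lowest of 7 for 116 members (71.2%, against 8.18% of all genes). With ExTQ002 left out it was lowest for 119 (73.0%, against 8.85%). Against the 3 other strains on its own slide the median member difference was -0.62.

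**Figure D1:**
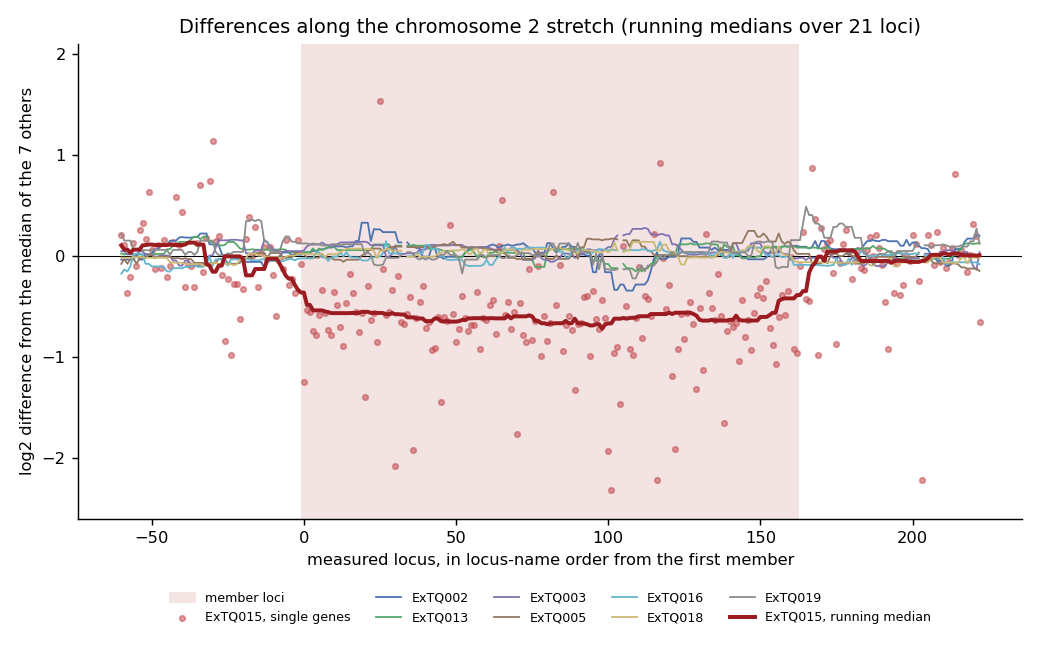
Log2 difference from the median of the 7 other strains (vertical axis) for measured loci in locus-name order (horizontal axis, 0 is the first member). Points are single genes in ExTQ015 (values beyond the axis are drawn near its edge), lines are running medians over 21 loci for each strain, and shading marks the members. The ExTQ015 line stays near -0.6 across the shaded stretch and near 0 on both sides, while the lines of the 7 others scatter around 0 throughout, with short dips and rises in ExTQ002 and ExTQ019.

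The depth of the lowering was much the same from one end to the other. The first 7 successive blocks of 20 members and the last block of 23 had ExTQ015 medians of -0.57, -0.57, -0.67, -0.59, -0.64, -0.60, -0.61 and -0.64. The 20 measured loci before the stretch had a median of -0.02, the 20 after it 0.05, and the 2830 other measured loci of chromosome 2 a median of -0.003. No slope towards either end is seen in these block medians.

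The ends themselves were set by these values, and single loci do not place a sharp step at either end. Before the stretch, AT2G41550 differed by -0.36, ACA4, a calcium-transporting ATPase, by 0.16 and AT2G41600 by -0.08. The first 3 measured members, AT2G41610, AT2G41620 and TFIIB, a general transcription factor, differed by -1.24, -0.54 and -0.56. AT2G41610 was variable (SD 1.29 over the others) and was not lowest in ExTQ015. AT2G41620 had a level of 1.55 in ExTQ015 and of 1.99, 2.07 and 2.22 as the lowest, median and highest of the 7 others. At the far end, the trypsin inhibitor genes TI1 and TI2 differed by -0.005 and -0.92, and AT2G43530 by -0.96. Outside it, AT2G43535 differed by -0.10, AT2G43540 by 0.24 and AT2G43550 by -0.43. The next locus, AT2G43560, was named after its value was seen. It differed by -0.44, with 1.71 in ExTQ015 against 1.78 as the lowest of the others. TI1 was highly variable (SD 1.65 over the others) and stood at -2.44 against the same slide.

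How closely a member followed the common value went with how variable the gene was over the 7 other strains. Among the 58 members whose SD over the 7 others was at most 0.2, the median difference was -0.61, the interquartile range -0.70 to -0.54 and the full range -0.92 to -0.25. ExTQ015 was lowest of 8 for all 58 of these, against 8.65% of the 5075 other genes with as small an SD. A shift of this size exceeds so small a spread, so that count follows largely from the choice of the members. With an SD of 0.2 to 0.5, 57 members had a median of -0.56. ExTQ015 was lowest for 35 of them (61.4%), against 4.43% of the other genes in that class. With an SD of 0.5 to 1, 30 members had a median of -0.87 and ExTQ015 was lowest for 11 (36.7%, against 5.26%). Above an SD of 1, 18 members ran from -2.31 to 1.54, and ExTQ015 was lowest for 2 (11.1%, against 3.97%). The members as a set were no more variable than other genes: their median SD over the 7 others was 0.29 against 0.33 for all measured genes, and 11.04% of members had an SD over 1 against 11.13%.

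**Figure D2:**
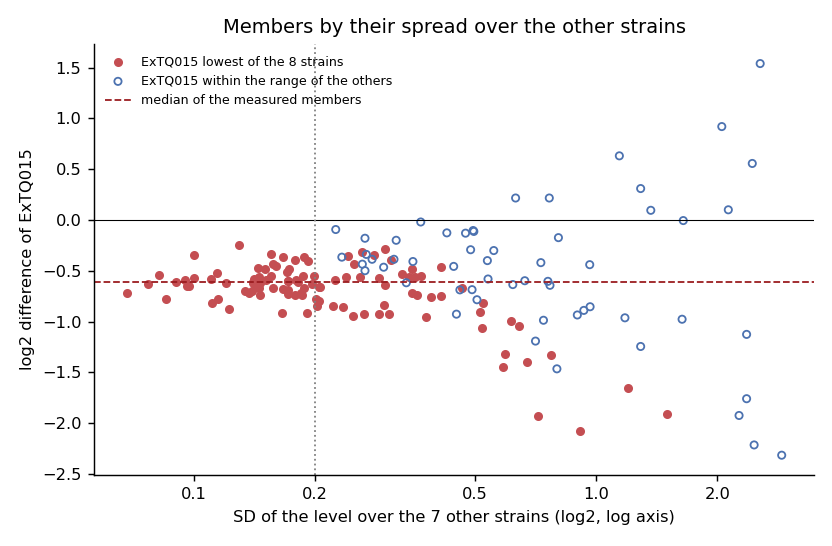
Log2 difference of ExTQ015 (vertical axis) against the SD of the level over the 7 other strains (horizontal log axis), 1 point per measured member. Filled points are the 106 members lowest in ExTQ015. All 58 members left of the dotted line at an SD of 0.2 lie between -0.92 and -0.25, and the points fan out above an SD of 0.5.

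The level of a gene made little difference to the median, but dim members were more scattered. With the members split by signal into 3 classes, the 54 dimmest had a median difference of -0.68, the 54 in the middle -0.61 and the 55 brightest -0.59. Their interquartile ranges were -1.11 to -0.36, -0.71 to -0.42 and -0.78 to -0.47. Where a locus had further probes, dimmer than the one used, these were also below 0. The 2 probes of EMB2654, an embryo-defective gene, gave -0.70 and -0.62, the 3 of AT2G42130 gave -0.61, -0.64 and -0.94, the 2 of SHP2 gave -2.31 and -2.32, and the 2 of AT2G43180 gave -0.52 and -0.47. The second probe of SHP2 was not well above background in ExTQ015, and that of AT2G43180 was not in any strain.

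Role groups are parts of a set chosen for low values in ExTQ015. Their counts, here and in the paragraphs on roles below, stand beside 94.5% of all measured members below 0 and 65.0% lowest in ExTQ015. The machinery genes for DNA, RNA and protein were lowered throughout. All 6 named and measured members of that group were lowest of 8 in ExTQ015, with a median of -0.59. POP4, a subunit of the RNA-processing enzyme RNase P, had a level of -1.47 in ExTQ015 against -0.94, -0.85 and -0.69 as the lowest, median and highest of the others, a difference of -0.63. POLD2, a DNA polymerase delta subunit, had -1.99 against -1.49, -1.096 and -0.97, a difference of -0.91. For both genes ExTQ015 lay outside the range of the 7 others. TFIIB differed by -0.56 and RPL16A, a protein of the large ribosomal subunit, by -0.41. FPA, an RNA-binding protein of the autonomous flowering pathway, was the smallest at -0.25, with a level of -1.29 against a range of -1.20 to -0.84.

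Of the metabolic and redox enzymes, all 12 were below 0 and 9 lowest of 8, beside 94.5% and 65.0% of all measured members. Their median was -0.56. GLX2-1, of the glyoxalase II family, had a level of -0.13 in ExTQ015 against 0.50, 0.74 and 0.86 in the others, a difference of -0.88. CSY3, a peroxisomal citrate synthase, had 1.505 against 1.757, 2.21 and 2.77, a difference of -0.72. Neither overlapped with the other strains. PPC2, a phosphoenolpyruvate carboxylase, differed by -0.67, GK-1, a guanylate kinase, by -0.58 and PCO4, a cysteine oxidase of oxygen sensing, by -0.59. NTRC, the chloroplast NADPH-dependent thioredoxin reductase, had a level of 1.06 against 1.34, 1.61 and 1.76, a difference of -0.57. GPX3, a glutathione peroxidase, and IPMI SSU1, an isopropylmalate isomerase small subunit, differed by -0.56 each, and PAO2, a polyamine oxidase, by -0.53. IPMI2, another isopropylmalate isomerase subunit, ETFQO, an electron transfer oxidoreductase of mitochondria, and BIO2, biotin synthase, differed by -0.46, -0.42 and -0.39, and for each of these 3 another strain was lower than ExTQ015.

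Of the signalling genes, 8 of 8 were below 0 and 5 were lowest in ExTQ015, beside 94.5% and 65.0% of all measured members. Their median was -0.62. GRF9, a 14-3-3 protein that binds phosphorylated partners, had a level of 2.77 in ExTQ015 against 3.33, 3.60 and 4.03, a difference of -0.85. PP2A-3, a catalytic subunit of protein phosphatase 2A, had 0.83 against 1.22, 1.67 and 1.85, again -0.85. For both of these ExTQ015 lay below all others. PLDBETA1, a phospholipase D, differed by -0.62, PP5.2, a protein phosphatase, by -0.61 and MSS3, a calmodulin-like protein, by -1.04. TTL3, a tetratricopeptide protein linked to brassinosteroid signalling, the kinase MPK20 and the receptor-like kinase PXC3 differed by -0.60, -0.50 and -0.29, inside the range of the others.

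Membrane, transport and cytoskeleton genes and defence genes gave smaller groups. ABCA1, an ABC transporter, had 0.13 in ExTQ015 against 0.76, 0.90 and 0.99, a difference of -0.78. INT1, an inositol transporter of the vacuole, differed by -0.64, ARA4, a Rab GTPase of vesicle traffic, by -0.51 and VLN2, an actin-bundling villin, by -0.46, and VLN2 was not lowest in ExTQ015. Of the defence genes, TI2 had -0.86 against -0.28, 0.05 and 0.63. RLP29, a receptor-like protein, differed by -0.44, and TI1 by -0.005 with a range of -0.23 to 3.41 over the others. Listed defence genes without a name in the reference were AT2G43530 at -0.96, AT2G42350 at 0.10 and AT2G42360 at 0.56.

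The 15 measured transcription and development regulators were less uniform: 12 were below 0, 6 were lowest in ExTQ015 and the median was -0.49. IBH1, a helix-loop-helix inhibitor of cell elongation, had a level of 0.19 against 0.91, 1.1 and 1.66, a difference of -0.92. FBH4, an activator of the flowering gene CONSTANS, had -1.30 against -0.64, -0.39 and 0.02, also -0.92. Both lay below every other strain. VOZ2, a phytochrome-interacting factor of flowering, differed by -0.55 and MAX2, the F-box protein of strigolactone and karrikin signalling, by -0.49. HSFB3, a heat shock factor, differed by -0.73 and NLP8, a nitrate-response factor, by -0.35, both also lowest in ExTQ015. SPL9, which promotes the change from juvenile to adult growth, differed by -0.85, but its lowest level, -1.84, was in ExTQ002 and that of ExTQ015 was -0.33. UVI4, a regulator of endoreduplication, MIZ1, a root hydrotropism gene, OXS2, a stress-response zinc finger factor, and ZFP8, a trichome factor, differed by -0.69, -0.58, -0.34 and -0.20, inside the others' ranges. The value of OXS2 rested on the background correction, being 0.02 with normexp correction.

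PIF4, the helix-loop-helix factor that drives growth in warmth and shade, was among the members at the level of the other strains. Its level was 4.44 in ExTQ015 against 4.00, 4.44 and 4.99 in the others, a difference of -0.02. Its spread over the others (SD 0.37) was not large, and ExTQ015 sat at their middle. Outside the stretch, the 4 related genes PIL6 (also PIF5), PIL5 (also PIF1), PIF3 and PIF7 differed by 0.34 to 0.56. PIL6 had 3.59 in ExTQ015 against 2.86, 3.02 and 3.53, and PIL5 0.94 against 0.20, 0.47 and 0.86, so both were highest in ExTQ015. Over 13 genes of the PIF4 and shade pathway elsewhere, the median was 0.16, with 4 below 0, and limma called 0 of 13 (0 at an unadjusted p under 0.05), beside background shares of 0.0491% called higher and 0.00447% called lower over all 22381 genes tested. HFR1, which binds and restrains PIF proteins, differed by -0.78 and was lowest in ExTQ015.

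Of the 9 members at or above 0, 7 had an SD over 1 in the other strains. PGAZAT, a polygalacturonase of abscission and dehiscence zones, differed by 1.54, with a level of -3.29 against -7.67, -4.84 and -0.64. NAC042, a NAC factor of senescence and stress, differed by 0.92 with a level of -3.29 against -4.92, -4.22 and 0.54. LSH10, of the ALOG family of developmental regulators, differed by 0.63 with 1.57 against -0.36, 0.93 and 2.75. All 3 lay inside the range of the others. AT2G42360 followed with 0.56 and AT2G42170 with 0.31, then AT2G42980 and AT2G43150 with 0.22 each and AT2G42350 and PAR1, a shade-avoidance inhibitor, with 0.10 each. Against the 3 strains of the same slide, 7 of these 9 turned negative: PGAZAT to -1.88, NAC042 to -0.72, LSH10 to -1.001, AT2G42360 to -2.13, AT2G42350 to -2.43, AT2G42980 to -0.80 and AT2G43150 to -0.98. The positive sign of those 7 rested on the strains of the other slide, while PAR1 and AT2G42170 stayed above 0 at 0.30 and 0.25.

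Flower, fruit and pollen genes had the most negative median of the role groups, -0.96 over 5 genes, 4 of them below 0. SHP2, a MADS-box factor of carpels and fruit valve margins, had the most negative difference of all members, -2.31, with a level of -5.53 against -9.87, -3.23 and -1.27. ExTQ015 was inside that range, ExTQ002 being the lowest. The SD of SHP2 over the others, 2.89, was also the largest of the 163 measured members, followed by PGAZAT at 2.56, AT2G42990 at 2.47, AT2G42360 at 2.44 and ZFP11 and AT2G43140 at 2.36 each. PDF1, an epidermis-layer gene of shoot tips and flowers, differed by -0.96 and NPG1, needed for pollen germination, by -1.19. Only BZIP34, a pollen factor, was lowest in ExTQ015 among the 5 named and measured genes of this group, at -0.46.

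Floral genes on other chromosomes were below the median of the 7 others in ExTQ015 as well, but inside their range. All 10 floral organ genes elsewhere were below 0 in ExTQ015, with a median of -1.15, and ExTQ015 lay within the others' range for all 10. On the same slide, ExTQ002 was lower than ExTQ015 for each of them, and ExTQ013 was lower for all but PI. With 1 array of ExTQ015, the limma comparison cannot show whether these genes were changed or unchanged. The summed flower marker level in ExTQ015 was 223% of the 75th percentile, the second lowest of 8, against 63.5% in ExTQ002 and 1330% in ExTQ018, with all 4 markers above background. The floral genes' part in the values of SHP2, PDF1 and NPG1 was not tested. Against the same slide, SHP2 and PDF1 turned to 0.15 and 0.16.

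Cold and dehydration members were 4, all below 0, with a median of -0.69. COR15B and COR15A, neighbouring genes for chloroplast proteins that protect membranes in frost, differed by -0.64 and -0.10. COR15B had 0.83 in ExTQ015 against 0.18, 1.46 and 2.54, and COR15A had -0.07 against -0.38, 0.02 and 1.07. Both overlapped with the others. Against the same slide the pair stood at -0.23 and -0.29, so their difference from each other rested on the other slide's strains, and cross-hybridisation between these similar genes was not tested. HVA22F, of an abscisic acid and stress-induced family, differed by -1.93 with -6.02 against -5.78, -4.11 and -3.88, and MBF1A, a transcriptional coactivator, by -0.74 with -0.33 against 0.22, 0.40 and 0.73. HVA22F was reduced to -0.88 with normexp correction. Of the cold-regulated genes elsewhere, 13 were measured, with a median of 0.34 and 2 below 0. ExTQ015 lay inside the range of the others for all 13. Whether these genes were changed or unchanged cannot be shown by limma with 1 array of ExTQ015. The dehydration-induced gene LTI65 differed by 2.18, with -1.54 against -5.71, -3.73 and -1.52, and LTI78 by 1.82, with 3.12 against -1.77, 1.29 and 3.23.

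**Figure D3:**
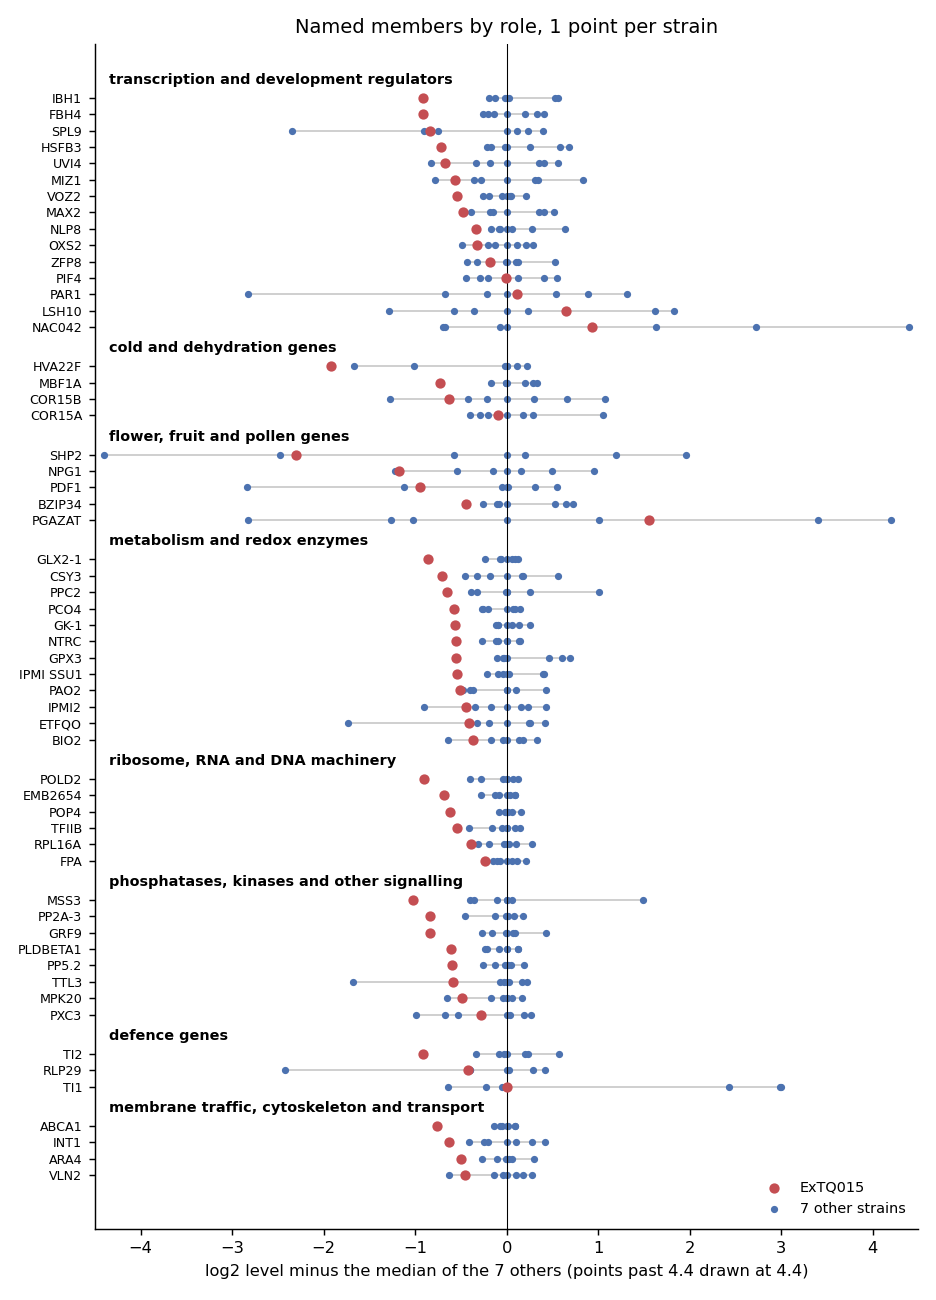
Level minus the median of the 7 other strains (log2, horizontal axis) for the named and measured members, grouped by role, with 1 point per strain. Red points are ExTQ015 and blue points the 7 others, joined by a grey line for their range. Red points lie left of the blue ones for every machinery gene and for most enzymes, and inside the blue range for PIF4, PAR1, LSH10, NAC042 and PGAZAT.

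A number of members have a close relative elsewhere, mostly in a chromosome 3 region that descends from the same ancient duplication. Of 18 named pairs, 17 had both genes measured, and 16 of the 18 partners lie on chromosome 3. The median difference in ExTQ015 was -0.58 for the members and -0.13 for the partners, and the member was lower than its partner in 15 of 17 pairs. The members were chosen for low values in ExTQ015 and the partners were not, so this contrast is largely set by the choice. ExTQ015 was lowest of 8 for 8 of the members and 1 of the partners. With 1 array of ExTQ015, the limma comparison cannot show whether the partners were changed or unchanged.

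Single pairs are given under the same limit. MBF1A differed by -0.74, and MBF1B lay at 0.07 with 2.92 against 2.70, 2.84 and 2.93. PP2A-3 differed by -0.85 and PP2A-4 by -0.15, with 2.02 against 1.64, 2.15 and 2.34. CSY3 differed by -0.72 and CSY2 by -0.13. Each of these 3 partners sat within the others' range. VOZ2 and VOZ1 differed by -0.55 and 0.06, GK-1 and AGK2 by -0.58 and 0.01, PPC2 and PPC1 by -0.67 and -0.14, and PAO2 and PAO3 by -0.53 and -0.06. TTL3 and TTL4 differed by -0.60 and -0.01, IPMI2 and IPMI1 by -0.46 and -0.03, VLN2 and VLN3 by -0.46 and 0.38, UVI4 and UVI4-LIKE by -0.69 and -0.36, and SPL9 and SPL15 by -0.85 and -0.34. NLP8 and NLP9 differed by like amounts, -0.35 and -0.29. SHP1, the partner of SHP2, differed by -0.62. The exceptions were PAR1 with PAR2 at -0.16, and PGAZAT with ADPG1 at -2.33, where the member was the higher one. CPK14 was not measured, and its partner CPK32 differed by -0.09.

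**Figure D4:**
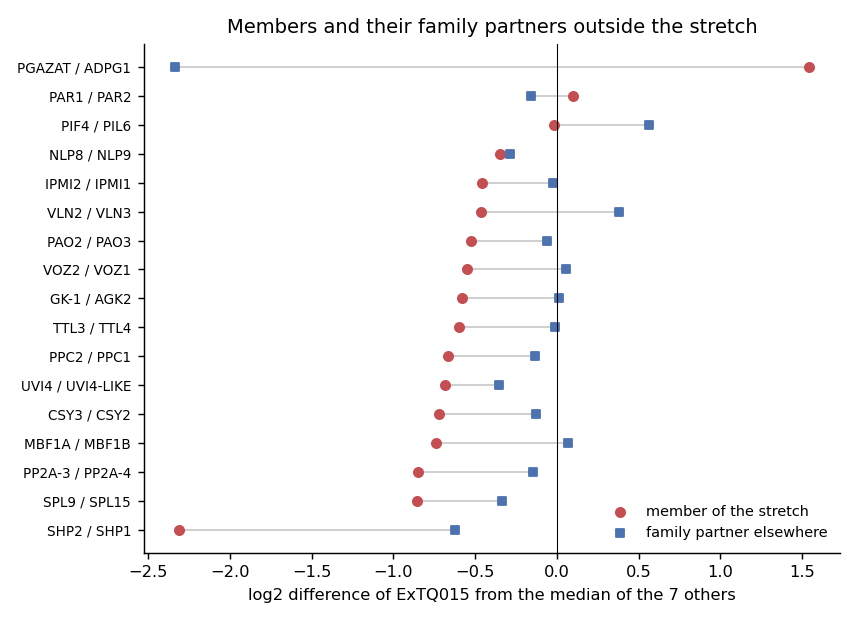
Log2 difference of ExTQ015 from the median of the 7 others (horizontal axis) for 17 members (circles) and their family partners outside the stretch (squares), joined by lines. The member lies left of its partner in 15 of the 17 pairs, and the partners sit around a median of -0.13. Members, but not partners, were chosen for low values in ExTQ015.

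Of the 5 most negative members, 3 carry no name here. AT2G42990 differed by -2.21, AT2G41905 by -2.08 and AT2G42005 by -1.92. AT2G41905 was lowest in ExTQ015, at -5.38 against -4.74, -3.32 and -2.25, and the other 2 were not. With normexp correction these 3 stood at -1.20, -1.27 and -1.50, and against the same slide at -1.10, -0.78 and 0.34. Of the members with the largest spread, ZFP11, a zinc finger factor, differed by -1.76, but by -0.67 with normexp and 0.54 against the same slide. AT2G43140 differed by -1.13, but by -0.30 from the deposited series values and -4.37 against the same slide. Several other members with a small SD stood clear of the others: OEP16-3, an outer envelope protein, at 2.55 against 3.16, 3.25 and 3.37, and ML2, of the mei2-like RNA-binding family, at 0.88 against 1.54, 1.78 and 1.93.

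In the limma comparison of ExTQ015 with the 7 others, 0 of the 185 members tested passed both thresholds, an adjusted p of 0.05 and a log2 difference of 1, while 61 were lower at an unadjusted p under 0.05. Over all 22381 genes, 0.0491% were called higher and 0.00447% lower, and 1.15% had an unadjusted p under 0.05. Nothing is read from that count, since the members were selected on this contrast. In that fit the lone strain is assumed to vary like the 7 others, whose spread comes from different strains.

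The contrasts of the other strains did not enter the choice, and there few members passed, mainly in the strain that stood apart over the whole genome. In ExTQ019, 6 members were higher, in a comparison with 4.4% of all genes called higher, and 5 were lower, with 6.31% called lower. Of the 185 members tested these are 3.24% and 2.7%, neither above the share of the genome. The 6 higher were AT2G42060, MSS3, AT2G42690, AT2G42760, PPC2 and AT2G42395. MSS3 had a level of 2.35 in ExTQ019 against -0.17, 0.74 and 0.91 in the others, a limma difference of 1.76 ± 0.38 (SE, adjusted p = 0.022). PPC2 had 4.17 against 2.52, 3.16 and 3.43, a difference of 1.16 ± 0.32 (SE, limma adjusted p = 0.0449). The 5 lower were PAR1, AT2G42170, ETFQO, TTL3 and AT2G41830. PAR1 had -1.19 against 0.97, 1.75 and 2.96, a difference of -3.11 ± 0.67 (SE, limma adjusted p = 0.0207). TTL3 had -0.14 against 0.96, 1.54 and 1.77, a difference of -1.64 ± 0.27 (SE, limma adjusted p = 0.00861). For these 4 genes ExTQ019 lay outside the range of all others. ExTQ015 was the lowest of the remaining 7 for MSS3, PPC2 and TTL3, and stood in their middle for PAR1.

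**Figure D5:**
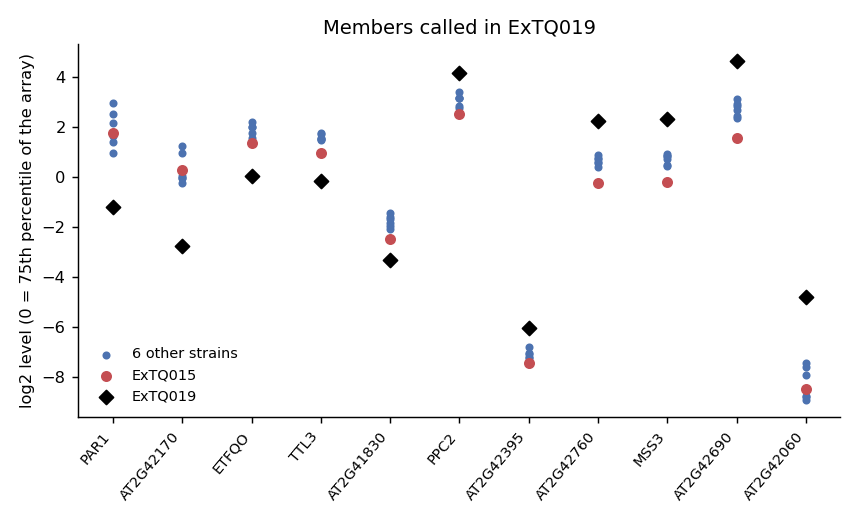
Level of the 11 members called in ExTQ019 (log2, 0 is the 75th percentile of each array) in ExTQ019 (diamonds), ExTQ015 (red) and the 6 other strains (blue). The diamonds lie outside the other points for all 11 genes, and the red points sit below the blue ones for 7 of them, the exceptions being PAR1, AT2G42170, AT2G42395 and AT2G42060.

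In ExTQ016, 2 members were higher, where 1.39% of all genes were called higher and 0.00447% lower, and 0 members were lower. ACT9, an actin gene, had a level of -5.49 in ExTQ016, and elsewhere its probe did not reach well above background, so it was at least 4.39-fold higher (limma adjusted p = 0.0242). AT2G42470 was at least 4.57-fold higher on the same basis. Both genes entered the tested set only through ExTQ016, the strain in which they are high, so their calls add no support. ExTQ016 was also the strain with all 4 seed storage genes detected, whose part in these calls was not tested. Of the other strains, ExTQ002, with 0.0849% of genes called, had 0 members called. Without ExTQ013 that strain had 75 genes higher and 272 lower, with 1 member in each direction. ExTQ013, ExTQ003, ExTQ005 and ExTQ018, with 0%, 0%, 0.00447% and 0% of genes called, had 0 members called each. With normexp correction ExTQ003 instead had 5380 genes and 39 members called higher, so its count depends on the background correction.

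The 34 members that were not measured were dim in most strains. Of these, 12 had no signal well above background in any of the 8 strains. The other 22 were above background in 1 to 5 of the other strains. Of all 34, AT2G42940 alone was above background in ExTQ015, at -6.61 against -9.33, -7.26 and -2.58. Regulators among the dim members were LBD16, a lateral root factor, and its relative ASL15.

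Other strains carried lowered runs of their own, which give a scale for this one. At the end of chromosome 2, 177 measured genes of ExTQ019 had a median of -0.94, 52.3% of the others' level, and 2 runs on chromosome 5 in ExTQ003 had medians of -0.41 over 209 genes and -0.40 over 238 genes. Genes with an SD of at most 0.2 in those runs had interquartile ranges of -1.15 to -0.61, -0.57 to -0.32 and -0.55 to -0.30. ExTQ015 stood at 0.04, 0.04 and 0.02 over these runs. These runs too were chosen by their low values, so the depths are set side by side with no test.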

How the data were processed

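Per the file headers, the authors scanned each array with Agilent Feature Extraction 11.0.1.1, whose processed signal is a background-subtracted intensity. The submitters' processing notes also name limma. The authors deposited a log2 series table as well. Each of its columns correlated with its own array at 0.9972 or more, its column medians were 7.638 to 7.645, and how it was normalized is not stated in a header or label. It served as an alternative only.

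From the deposited intensity, 34 of 37478 probes were dropped for outlier flags, spots of a probe were averaged, log2 values were centred on the 75th percentile of each array, and a locus took its brightest probe by mean level. A member was measured where it was well above background on 6 or more of the 7 others. Number of arrays limits the precision: 1 per strain, so p-values measure the spread between strains. Tests used limma 3.58.1 in R 4.3.3, 1 strain against 7, over 22381 genes detected on 1 or more arrays, with Benjamini-Hochberg adjustment; calls passed an adjusted p of 0.05 and a log2 size of 1. On simulated data for ExTQ015 (22381 genes) it recovered 34.3% of genes changed by 1.5, 53.7% by 3 and 74.2% by 5 on the log2 scale. Bounds for probes not well above background in every other strain set the bright strain against the higher of each array's lowest detected signal and the probe's own. They were taken over the other arrays together, so they are no bound against each single strain. Tables were handled in Python 3.11.15 with numpy 2.4.6 and pandas 2.3.3.

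The members and gene lists were chosen with earlier results of these data known. Genes were named if in a role group, among the 5 highest or 5 lowest differences or the 5 largest spreads, within 3 loci of an end, a partner, or a pathway gene of a member's family or past the test; other members and pathway genes named singly (such as those with a difference of 0 or more, HFR1, LTI65, LTI78, OEP16-3 and ML2) were named after their values were seen. Role groups and pairs were kept to genes that the RefSeq table for Arabidopsis names, which held 195 of the 197 loci. No header or label names the genome build behind the array, and no coordinates or sequences are printed. Strain names follow the sample titles, with which the descriptions differ in strain number. Alternatives changed the background correction (normexp on the median signal, offset 50), normalization, probe choice, detection filter, slide and strains compared.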

Additional observations from a re-analysis of the deposited data

Results flagged for a closer look

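Levels in the 7 strains other than ExTQ015 were examined for a strain far from the other 6, by Dixon's 95% criterion. Of 89 genes examined, 14 had one, where chance gives about 1 in 20. The number is not a measure of the stretch, since some of these genes were named because they were called in ExTQ016 or ExTQ019.

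In ExTQ019, ETFQO at 0.05, MPK20 at 0.43, TTL3 at -0.14, AT2G42170 at -2.74 and AT2G41830 at -3.30 were far below the other strains. In the same strain MSS3 at 2.35, AT2G42130 at 1.01, AT2G42060 at -4.80, AT2G42690 at 4.65 and AT2G42760 at 2.23 were far above them. In ExTQ002, RLP29 at -3.57 and AT2G42990 at -8.23 were far below the rest. In ExTQ016, ACT9 at -5.49 and AT2G42470 at -5.43 were far above strains in which neither was well above background.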

How the results depend on the processing

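The member median of ExTQ015 stayed below 0 under each alternative run. It was -0.54 with normexp correction, -0.536 from the deposited log2 series values, -0.639 against the mean of the others, and -0.634 to -0.604 with each other strain left out in turn. The largest member median among the 7 others, 0.064, became 0.085 from the series values, 0.097 against the mean of the others, 0.094 without centring, and 0.077 to 0.092 with a strain left out. The count of members lowest in ExTQ015 (106), for which alternatives were chosen after seeing the data, ran from 92 with normexp to 125 against the same slide, and from 106 to 119 with a strain left out.

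Over all genes, 12 were called in ExTQ015. The count was 0 with normexp, 5 from series values, 3 where detection on all 8 arrays was required, 4 with a trended robust fit, 0 against the same slide, and 5 to 13 with a strain left out (7 without ExTQ002, 6 without ExTQ013, 5 without ExTQ005 and 6 without ExTQ018). The cause was not tested. The 2 members called in ExTQ016 were well above background in that strain alone, so the filter for detection on all 8 arrays removes both by construction. Members called in ExTQ016 went from 2 to 0 with normexp, series values, the all-array filter, the trended fit, the same slide, or without ExTQ013, ExTQ015 or ExTQ005. Members called in ExTQ019 became fewer in both directions with normexp and without ExTQ005, and more against the same slide and without ExTQ002. The calls over all genes in ExTQ019 fell and rose in the same settings, so these changes are not particular to the members. With normexp, ExTQ003 went from 0 calls to 5380 genes higher and 10 lower, 39 of them higher members. In ExTQ002, 7 higher and 12 lower became 75 and 272 without ExTQ013 and 12 and 87 without ExTQ019. Of 81 named members, 12 changed sign against the same slide: LSH10 (-1.001), NAC042 (-0.72), SHP2 (0.15), PDF1 (0.16), PGAZAT (-1.88), AT2G42005 (0.34), AT2G42360 (-2.13), ZFP11 (0.54), AT2G42350 (-2.43), AT2G42980 (-0.80), AT2G43150 (-0.98) and PXC3 (0.23). With normexp 5 did: NAC042 (-0.40), AT2G42360 (-0.93), AT2G42350 (-1.54), COR15A (0.013) and OXS2 (0.024). From series values 3 did: OXS2 (0.04), COR15A (0.014) and AT2G43150 (-0.004). With quantile normalization 0 did. Of the 81, 69 kept their value within 1 SD of the others with normexp, 81 with quantile normalization, 71 from series values and 58 against the same slide. No paired analysis was possible because all strains form 1 group with 1 array each. Signal over background limits the 34 unmeasured members.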
